A study of Mus musculus with 6 samples.

Results

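Collagen and matrix glycoprotein genes were compared between 2 kinds of macrophage taken from mouse muscle after toxin injury. The set holds every gene whose own probe set carries a collagen chain symbol, 44 genes, and 15 further genes of secreted matrix proteins: Vcan, Fn1, Thbs1, Sparc, Dcn, Bgn, Lum, Fbln1, Fbln2, Ecm1, Lox, Postn, Tnc, Nid1 and Hspg2. These are 59 of the 19938 genes measured by a probe set of their own, and 1 further gene of the same choice was not analysed here. The choice used names, not values. The question was which of these genes vary with markers of the fibroblasts and vessel cells that make most muscle matrix, and which are measured at levels far above background in cells sorted as macrophages.

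All samples came from mice of the strain B6.129P2-Lyzstm1(cre)Ifo/J, in which the Cre recombinase is driven from the lysozyme locus of myeloid cells, so both groups carry that allele. The tibialis anterior muscle received cardiotoxin, a myotoxin from cobra venom, 2 days before the cells were taken. Cells bearing CD45, the antigen of the blood lineage, were enriched with magnetic beads. They were then sorted by surface staining as Ly6C+ F4/80low, below the Ly6C+ cells, or as Ly6C- F4/80high, below the Ly6C- cells. Each of 3 mice gave both subsets, so there were 6 Affymetrix arrays, 3 per subset, and no uninjured muscle. Values are log2 expression after RMA. Each difference is the mean of the Ly6C- arrays minus that of the Ly6C+ arrays, with its standard error (SE).

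The extracellular matrix of muscle is a mesh of collagen fibrils and basement membranes bound by glycoproteins and proteoglycans. Fibroblasts and their progenitors lay down most fibrillar collagen, while endothelial and muscle cells add basement membrane proteins such as type IV collagen, perlecan and nidogen. Macrophages and monocytes make a narrower set that includes fibronectin, thrombospondin, versican and TGF-beta-induced protein, and they also take up and degrade collagen.

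A gene was called at a limma adjusted p under 0.05 over all genes. A background level of 5.44 was set from 1194 olfactory and vomeronasal receptor genes, of which 95% had a mean at or under it. Above background in a subset means above that level on all 3 of its arrays. Of the 59 members 48 were above background in at least 1 subset, where 61.7% of all genes were, and 7 were above it on no array. The 48 were all above it in the Ly6C+ cells and 42 of them in the Ly6C- cells. Col2a1, the collagen of cartilage, lay at 6.52 to 6.79 on the 6 arrays, so a level above background does not by itself show that a collagen is made by these cells. All 14 measured macrophage and monocyte markers were above background on each Ly6C- array, and 13 on each Ly6C+ array, with Cd163 the exception. Of these 14 markers 7 were higher and 4 lower in the Ly6C- cells. Among the 7 were Adgre1, which encodes one of the sorting antigens, at 0.73 and the complement gene C1qa at 1.55. The 4 were Ptprc, the gene of CD45, at -0.64, Cd14 at -0.42, Fcgr1 at -0.28 and Itgam at -0.23. Of the markers of other cells that a sort may carry, 7 of 17 for other leukocytes were lower (41.2%) and 0 higher. For muscle cells 3 of 12 were lower (25%) and 0 higher, and for pericytes 1 of 11 was lower (9.09%) and 1 higher. For tendon and Schwann cells 1 of 6 was lower (16.7%) and 0 higher. The shares of all genes, to set beside these and the macrophage counts, were 14.3% lower and 19.5% higher. The arrays are bulk samples, in which fewer cells of a type and less RNA per cell cannot be told apart.

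1 array stood apart for part of the set. On the Ly6C+ array of mouse 1, Dcn and Bgn were 1.17 and 0.96 above the mean of the arrays of mice 2 and 3. Results that rest on it are given with and without it below.

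Most matrix genes that differed were lower in the Ly6C- cells. Of the 59 members 23 were lower, 1 was higher and 35 were not called. Over all genes 14.3% were called lower and 19.5% higher, 33.8% in either direction. The median difference of the members was -0.22, against -0.06 over all genes. Among the 7850 genes whose mean lay in the level range of the collagens, 15.6% were called lower and 15.9% higher, with a median of -0.10. Differences of at least 2-fold were called for 4 members, Vcan, Sparc, Dcn and Bgn, all lower, where 1.02% of all genes were that much lower and 1.91% that much higher. For Dcn and Bgn the Ly6C- arrays were under background, so their fitted 2-fold is not a measured one. No member was called at least 2-fold higher by limma, while Ecm1 alone had a positive difference at an unadjusted p under 0.05, and 35 members had a negative one. Of all genes 22.7% were higher and 22.2% lower at that unadjusted p, the shares to set beside the unadjusted counts of each class and list. In 33 of the 59 members no array of one subset fell within the range of the other, against 48.1% of all genes.

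**Figure D1:**
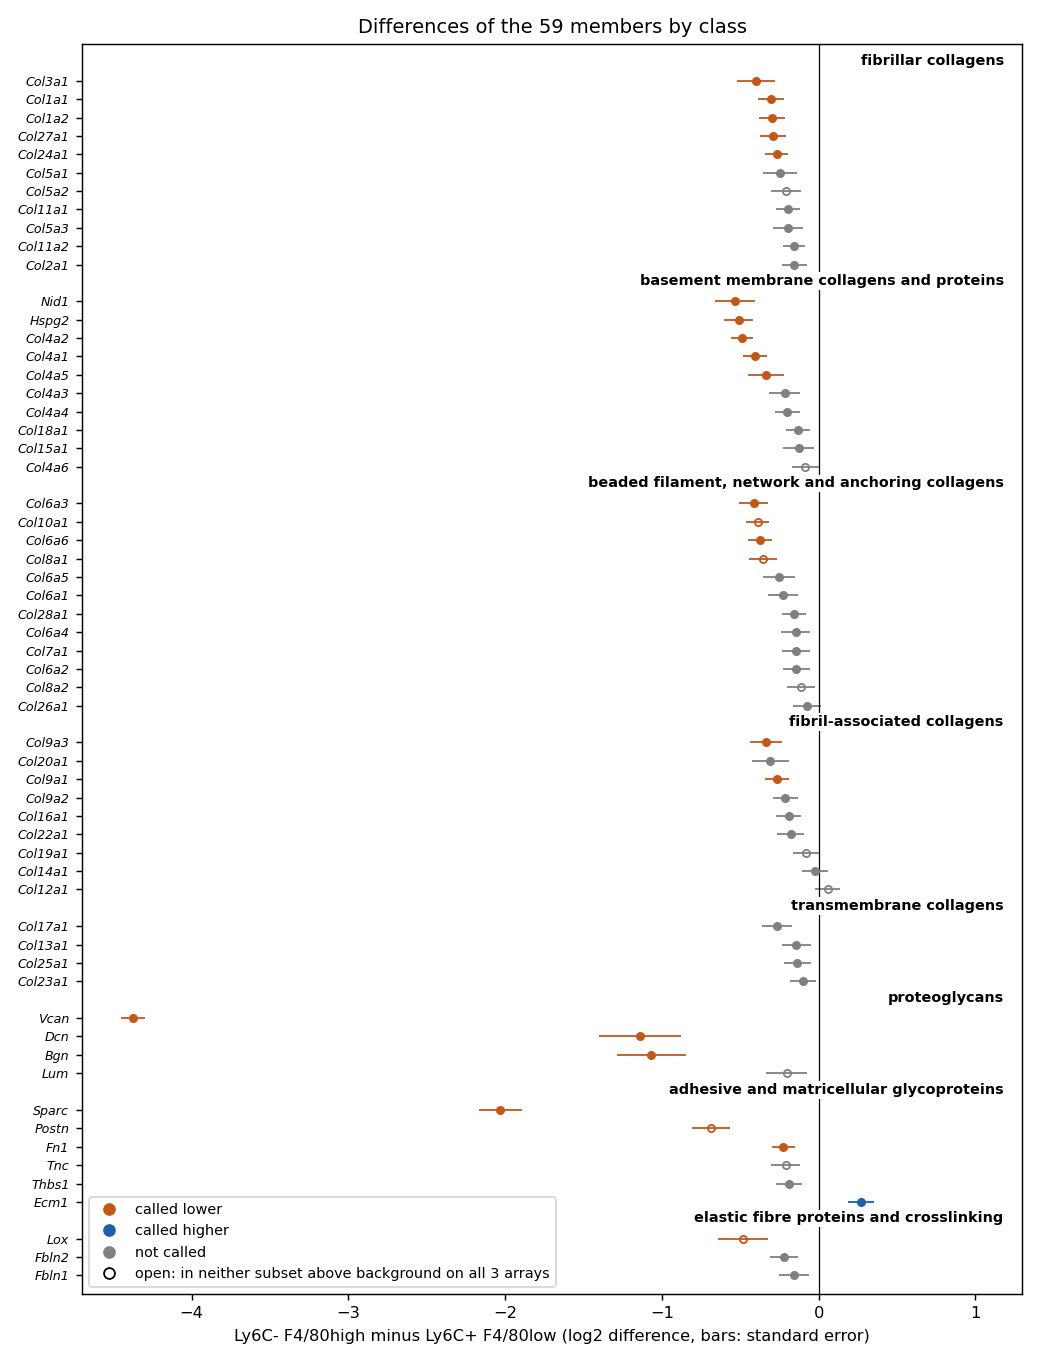
The x axis is the log2 difference, Ly6C- minus Ly6C+ (n = 3 arrays each, bars: SE), for the 59 members by class, with orange for genes called lower, blue for higher and grey for not called. Vcan at -4.37 and Sparc at -2.03 lie far to the left, the collagens lie between -0.49 and 0.06, and Ecm1 at 0.27 is the 1 called point to the right of zero.

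Promoter sequences of 4 members are shown, from RefSeq on GRCm38.p6, running from 250 bases before to 50 bases after the gene start. The table held windows for 45 of the 59 members. The first set is the pair Col4a1 and Col4a2, the genes of the chains that assemble into the common type IV collagen of basement membranes. They are read from opposite strands with starts 21 bases apart. Their windows, Col4a1 at chr8:11312777-11313076 on the minus strand and Col4a2 at chr8:11312555-11312854 on the plus strand, share 78 bases, written in capitals, each on its own strand. This was the 1 pair of members with overlapping windows, and 11.9% of the 27025 genes in the table have a window that overlaps one of another gene on the other strand.
Col4a1: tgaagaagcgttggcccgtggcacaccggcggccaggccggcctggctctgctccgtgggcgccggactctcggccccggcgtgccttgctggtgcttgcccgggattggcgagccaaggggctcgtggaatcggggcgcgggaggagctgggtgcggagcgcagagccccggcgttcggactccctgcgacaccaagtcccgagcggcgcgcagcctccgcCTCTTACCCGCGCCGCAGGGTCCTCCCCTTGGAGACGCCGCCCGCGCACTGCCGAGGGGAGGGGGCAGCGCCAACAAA
Col4a2: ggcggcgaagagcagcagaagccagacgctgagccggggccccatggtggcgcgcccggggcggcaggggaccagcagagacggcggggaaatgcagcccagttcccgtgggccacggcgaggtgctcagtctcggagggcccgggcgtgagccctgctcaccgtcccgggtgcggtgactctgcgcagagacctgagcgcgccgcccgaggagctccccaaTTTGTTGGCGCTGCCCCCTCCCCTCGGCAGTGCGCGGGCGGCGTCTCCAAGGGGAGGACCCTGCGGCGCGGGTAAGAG

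The second set is Vcan and Ecm1, the member with the largest negative difference and the 1 member called higher. Their windows lie at chr13:89742463-89742762 and chr3:95739520-95739819, both on the minus strand. Capitals mark matches on either strand to the GC box GGGCGG, the CCAAT box CCAAT, the TATA box TATAAA and the AP-1 site TGANTCA, none of which overlaps another here. The Vcan window held 2 GC boxes and 1 CCAAT box on the opposite strand. The Ecm1 window held 1 GC box, 1 AP-1 match and 1 TATA box, which began 27 bases before the start. Of all 32851 windows given for mouse genes 35.7% hold the GC box, 37.4% the CCAAT box, 13.6% the TATA box and 7.81% the AP-1 site. These matches describe the letters and not binding.
Vcan: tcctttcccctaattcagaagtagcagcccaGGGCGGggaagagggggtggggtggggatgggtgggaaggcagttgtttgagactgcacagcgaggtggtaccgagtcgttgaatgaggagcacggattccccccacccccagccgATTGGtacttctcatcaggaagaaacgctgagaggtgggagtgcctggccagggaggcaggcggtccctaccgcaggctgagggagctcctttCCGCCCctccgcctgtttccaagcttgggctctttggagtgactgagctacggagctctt
Ecm1: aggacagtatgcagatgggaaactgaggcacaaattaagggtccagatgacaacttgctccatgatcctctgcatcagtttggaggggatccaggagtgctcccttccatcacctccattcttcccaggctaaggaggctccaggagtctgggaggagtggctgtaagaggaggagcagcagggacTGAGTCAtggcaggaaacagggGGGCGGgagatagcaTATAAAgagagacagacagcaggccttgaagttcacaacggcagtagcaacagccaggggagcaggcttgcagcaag

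Vcan, which encodes the large hyaluronan-binding proteoglycan versican, was 20.7-fold lower in the Ly6C- cells. Its arrays read 7.04, 7.20 and 7.12 for mice 1, 2 and 3 there, and 11.45, 11.55 and 11.49 in the Ly6C+ cells. The subsets did not overlap, and the arrays of each lay within 0.16 and 0.10. The difference was -4.37 (SE 0.08, limma adjusted p = 2.02e-09), and both subsets were above background. It ranged from -4.49 to -4.33 over the 16 alternatives. On the mouse 1 array of the Ly6C+ subset, where the fibroblast markers had their highest mean, Vcan had the lowest value of that subset. In the Ly6C- subset the fibroblast mean was highest for mouse 2, and there Vcan was highest too.

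Sparc, the collagen-binding matricellular protein osteonectin, was 4.08-fold lower. It read 6.60, 6.43 and 6.53 in the Ly6C- cells of mice 1, 2 and 3, and 8.85, 8.57 and 8.22 in the Ly6C+ cells. All Ly6C+ arrays were higher, with more spread among them than in the other subset. The difference was -2.03 (SE 0.14, limma adjusted p = 4.65e-06), and -1.88 (adjusted p = 1.23e-05) without the Ly6C+ array of mouse 1. Sparc is also made by endothelial cells and platelets. Most endothelial markers were lower too, with the values given for the basement membrane genes. So were 12 of 24 fibroblast markers, with 0 higher, against 14.3% and 19.5% of all genes. Like some of the fibroblast markers, Sparc was raised on the Ly6C+ array of mouse 1, by 0.45 over the mean of mice 2 and 3. Of 7 measured platelet markers 1 was higher and 0 were lower, against 19.5% and 14.3% of all genes. The 1 was Pf4, a chemokine gene that macrophages can also express, at 1.38 (SE 0.15, adjusted p = 9.48e-05). The platelet surface gene Clec1b was above background on no array, and the median difference of the list was -0.08. Ppbp, Gp9, Gp5, Treml1 and Itga2b had differences from -0.27 to -0.018, and none was called by limma. Ppbp was far above background, at 10.60, 10.30 and 10.75 in the Ly6C- and 10.30, 10.61 and 10.96 in the Ly6C+ cells. The subset means of Gp9, Gp5, Treml1 and Itga2b lay between 5.63 and 6.73. The summed linear level of the list, in which Pf4 had the only called difference, was 4857 to 6283 in the Ly6C- and 2729 to 4056 in the Ly6C+ cells. The part of fibroblasts, endothelial cells and platelets in the Sparc difference was not tested.

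Fn1 and Thbs1, which encode the adhesive glycoproteins fibronectin and thrombospondin 1, were far above background on every array and differed little. Fn1 read 12.16, 12.24 and 12.28 in the Ly6C- cells and 12.44, 12.47 and 12.45 in the Ly6C+ cells. The subsets did not overlap, and the difference of -0.23 (SE 0.07) was called at a limma adjusted p of 0.0373. The adjusted p was 0.0642 under a replicate block for mouse, 0.0560 after cyclic loess and 0.0688 with a common median, so the call was lost in each. The call was also lost without any 1 array: the adjusted p was 0.0706, 0.0903 and 0.0804 without the Ly6C+ array of mice 1, 2 and 3, and 0.124, 0.0601 and 0.0590 without the Ly6C- array of mice 1, 2 and 3.

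Thbs1 read 12.61, 12.76 and 12.81 in the Ly6C- cells and 12.84, 12.99 and 12.91 in the Ly6C+ cells. The highest Ly6C- array lay just under the lowest Ly6C+ array. Its difference of -0.19 (SE 0.08) was not called (limma adjusted p = 0.111). It passed after quantile normalization (-0.23, adjusted p = 0.0335) and with a trended robust prior (adjusted p = 0.0273).

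Ecm1, a secreted glycoprotein that binds perlecan and other matrix proteins, was the 1 member called higher in the Ly6C- cells. It read 10.59, 10.56 and 10.48 there, and 10.17, 10.25 and 10.41 in the Ly6C+ cells. The subsets did not overlap, and the nearest arrays were both from mouse 3. The difference was 0.27 (SE 0.09, limma adjusted p = 0.0348). The adjusted p under a replicate block for mouse was 0.0660, and after cyclic loess the difference was 0.20 (adjusted p = 0.101). The call was lost without the Ly6C+ array of mouse 1 (0.22, adjusted p = 0.112) or mouse 2 (adjusted p = 0.0857), and without the Ly6C- array of mouse 1 (adjusted p = 0.106), mouse 2 (adjusted p = 0.0705) or mouse 3 (adjusted p = 0.0531).

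Dcn and Bgn encode decorin and biglycan, small leucine-rich proteoglycans that bind collagen fibrils and are typical products of fibroblasts. Dcn read 4.85, 4.76 and 5.0 in the Ly6C- cells, all under background, and 6.79, 5.70 and 5.55 in the Ly6C+ cells. The mouse 1 array stood more than 1 log2 unit above the other 2 arrays of its subset. Against the background Dcn was at least 1.48-fold lower (fitted difference -1.14, SE 0.26, limma adjusted p = 0.00783), and at least 1.13-fold lower without that array (fitted difference -0.75, adjusted p = 0.000688).

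Bgn read 5.31, 5.33 and 5.17 in the Ly6C- cells, again all under background, and 6.98, 5.93 and 6.11 in the Ly6C+ cells. It was at least 1.87-fold lower (fitted difference -1.07, SE 0.22, limma adjusted p = 0.00420), and at least 1.50-fold lower without the mouse 1 array of the Ly6C+ subset (fitted difference -0.75, adjusted p = 0.000561). Decorin and biglycan genes kept their call in all 15 alternatives in which they were tested. Without that array neither passed 2-fold, which left 2 members, Vcan and Sparc, at 2-fold. Lum, the gene of the related proteoglycan lumican, was above background on no array and was not called (-0.20, adjusted p = 0.241).

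**Figure D2:**
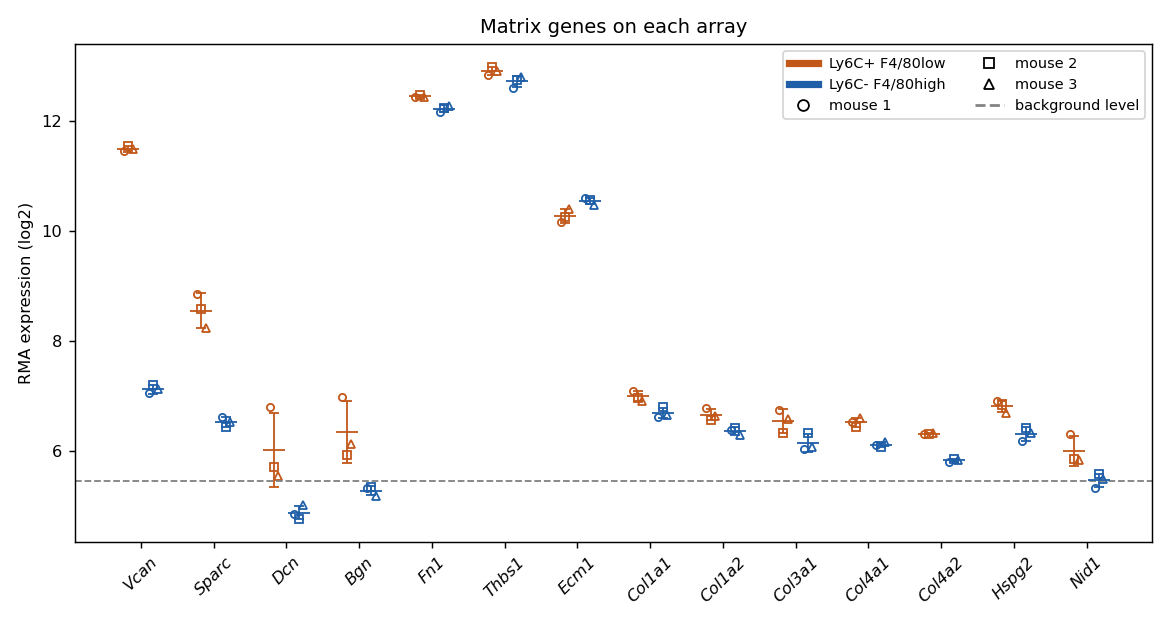
The y axis is the log2 RMA value on each of the 6 arrays for 14 members, with orange for Ly6C+, blue for Ly6C-, a marker shape for each mouse, bars for the mean ± SD (n = 3) and a dashed line at the background of 5.44. Vcan drops from about 11.5 to about 7.1 with tight arrays, while for Dcn and Bgn the Ly6C+ circle of mouse 1 lies apart from the square and triangle of mice 2 and 3.

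The mouse 1 array was raised in 7 members by more than 0.3 over the mean of mice 2 and 3 in the Ly6C+ subset, a step chosen after the values were seen. They were Dcn at 1.17, Bgn at 0.96, Lox at 0.66, Nid1 at 0.46, Sparc at 0.45, Lum at 0.40 and Postn at 0.38. No collagen was among them, with Col3a1 just under the step at 0.29. These 7 were 11.9% of the members, against 4.52% of all genes. Lower by as much were 0 members, and 665 of all 19938 genes. Of the 24 fibroblast markers 7 were over the same step, among them Dpt, the dermatopontin gene of resident fibroblasts, at 0.55, and Pi16, of progenitor fibroblasts, at 0.46. The median of this list was 0.13, and some of its markers were not raised, such as Igfbp6 at -0.09 and Pdgfrb at -0.08. Of 15 endothelial markers 2 were over the step, Emcn at 0.47 and Vwf at 0.31, and of 14 macrophage and monocyte markers 0. The endothelial median was 0.12, and Cdh5 of that list lay at -0.03. Lox, Lum, Postn and Dpt were above background on no array. Of 50 other core matrix genes 5 were over the step. Among the small leucine-rich proteoglycan genes of the other lists, the relatives of Dcn and Bgn, Prelp was over it at 0.45 and was above background in both subsets, and Fmod, above background on all 3 Ly6C+ arrays, was not, at 0.0063. Ogn at 0.82, Aspn at 0.081 and Ecm2 at 0.064 were above background on no array. On the same array Vcan and Fn1 lay within 0.3 of the mean of mice 2 and 3, as did Thbs1 and Ecm1.

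**Figure D3:**
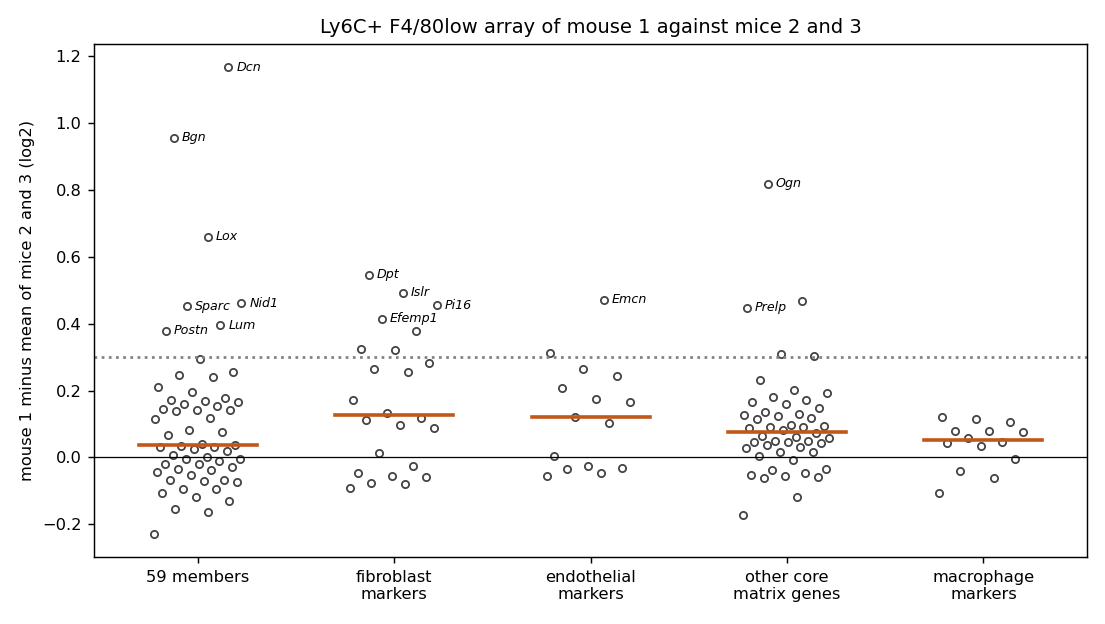
Each point is a gene, and the y axis is its log2 value on the Ly6C+ array of mouse 1 minus the mean of the arrays of mice 2 and 3, for the 59 members and 4 other gene lists, with the list median in orange and a dotted line at 0.3. Dcn at 1.17 and Bgn at 0.96 stand highest, Ogn at 0.82 was above background on no array, and the 14 macrophage markers stay under 0.3.

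The fibroblast markers also differed between the subsets. Of 24 measured markers 12 (50%) were lower in the Ly6C- cells and 0 higher, by limma, against 14.3% and 19.5% of all genes. At an unadjusted p under 0.05 these counts were 14 and 0, against 22.2% and 22.7% of all genes. Of the 13 markers above background in a subset 6 were lower and 0 higher, against 1988 and 3653 of the 12292 such genes. The median difference of the 24 markers was -0.31. Pi16 differed by -1.23 (SE 0.15, limma adjusted p = 0.000146) and Igfbp6, a binding protein of insulin-like growth factors, by -1.36 (SE 0.14, adjusted p = 6.52e-05). Pdgfra, the receptor that defines muscle fibroblast progenitors, was above background on 0 of 3 Ly6C- and 2 of 3 Ly6C+ arrays, and at least 1.05-fold lower (fitted difference -0.38, adjusted p = 0.00410). Among the markers not called, Smoc2, Serpinf1, Htra3, Gli1 and Scara5 were above background in both subsets and differed by -0.13 to 0.02. The markers Dpt, Mfap5, Mfap4, Tcf21, Osr1, Dpep1 and Meox1 were above background on no array. Of these Dpt, Mfap5 and Meox1 were among the 12 called lower. The summed linear level of the list was 999.5 to 1134 in the Ly6C- and 1357 to 1517 in the Ly6C+ arrays, with the mouse 1 array highest. This sum includes the signal of the markers under background, and Igfbp6 had the largest difference in it. It is therefore no measure of cell number. The part of such cells in the lower Dcn, Bgn and collagen values was not tested.

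Fibrillar collagens form the tensile fibrils of scar and connective tissue. Of 11 measured chains 5 were lower (45.5%, against 14.3% of all genes) and 0 higher by limma, and 7 and 0 at an unadjusted p under 0.05, with a median of -0.25. Col1a1, a chain of type I collagen, read 6.62, 6.79 and 6.65 in the Ly6C- cells and 7.09, 6.96 and 6.91 in the Ly6C+ cells. The groups did not overlap, and the difference was -0.30 (SE 0.08, limma adjusted p = 0.0196). Its call was lost without the Ly6C+ array of mouse 1 (adjusted p = 0.0673) or the Ly6C- array of mouse 1 (adjusted p = 0.0716) or mouse 3 (adjusted p = 0.0674).

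Col1a2, the partner chain, read 6.38, 6.42 and 6.28 against 6.77, 6.56 and 6.64, again without overlap. It differed by -0.30 (SE 0.08, limma adjusted p = 0.0216), and the call was lost without the same 3 arrays (adjusted p = 0.0735, 0.0511 and 0.0825 in that order). Col3a1, of the type III collagen of early repair, read 6.03, 6.33 and 6.06 against 6.74, 6.32 and 6.57. The mouse 2 arrays of both subsets were nearly equal, so the groups overlapped. The difference of -0.40 (SE 0.12, limma adjusted p = 0.0272) was not called under a replicate block for mouse (adjusted p = 0.0598). It was also not called without the Ly6C+ array of mouse 1 (adjusted p = 0.0929) or mouse 3 (adjusted p = 0.0729), or without the Ly6C- array of mouse 1 (adjusted p = 0.0963) or mouse 3 (adjusted p = 0.0918).

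Col27a1 and Col24a1, minor fibrillar chains of cartilage and bone, were the other called members of this class, at -0.29 (SE 0.08, limma adjusted p = 0.0217) and -0.27 (SE 0.07, adjusted p = 0.0200). Col27a1 read 6.52, 6.70 and 6.62 against 6.86, 6.85 and 7.0, and Col24a1 5.71, 5.64 and 5.62 against 5.85, 5.95 and 5.97. Neither gene had overlapping groups. Col27a1 was not called without the Ly6C- array of mouse 1 (adjusted p = 0.0832) or mouse 3 (adjusted p = 0.0577) or the Ly6C+ array of mouse 3 (adjusted p = 0.0787). Col24a1 was not called without the Ly6C+ array of mouse 2 (adjusted p = 0.0570) or mouse 3 (adjusted p = 0.0657) or the Ly6C- array of mouse 3 (adjusted p = 0.0680), nor after quantile normalization (adjusted p = 0.0613) or cyclic loess (adjusted p = 0.0791). The 6 chains not called, among them Col2a1, lay between -0.25 and -0.16.

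Basement membrane genes were lower in 5 of 10 cases, against 14.3% of all genes, and higher in 0 by limma, with 6 and 0 at an unadjusted p under 0.05 and a median of -0.28. Col4a1 read 6.10, 6.07 and 6.15 in the Ly6C- cells and 6.51, 6.44 and 6.59 in the Ly6C+ cells. Its difference was -0.41 (SE 0.08, limma adjusted p = 0.00254). Col4a2 read 5.79, 5.85 and 5.82 against 6.31, 6.31 and 6.31, a difference of -0.49 (SE 0.07, adjusted p = 0.000502). For both genes, whose windows share the capitals printed above, the arrays of the subsets were well apart and the call held in all 16 alternatives.

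The other type IV chains come as neighbouring pairs too. Col4a3 and Col4a4 differed by -0.22 and -0.20 and were not called. Col4a5 and Col4a6, whose starts lie 1343 bases apart, differed by -0.34 (SE 0.12, limma adjusted p = 0.0468) and -0.09 (adjusted p = 0.470), and Col4a6 changed sign after renormalization. Col4a5 read 5.52, 5.86 and 5.64 against 6.04, 5.81 and 6.19, and its groups overlapped. Its call was lost under a replicate block for mouse (adjusted p = 0.0798), after quantile normalization (adjusted p = 0.0582) and after cyclic loess (adjusted p = 0.0613). It was also lost without the array of mouse 1 or 3 of either subset (adjusted p = 0.109 and 0.154 for Ly6C+, 0.159 and 0.122 for Ly6C-).

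Hspg2 and Nid1 encode perlecan and nidogen 1, which link the laminin and collagen sheets of the basement membrane. Hspg2 read 6.17, 6.41 and 6.33 in the Ly6C- cells and 6.91, 6.84 and 6.69 in the Ly6C+ cells, a difference of -0.51 (SE 0.09, limma adjusted p = 0.00194). Nid1 read 5.33, 5.57 and 5.47 against 6.30, 5.84 and 5.83, with mouse 1 highest in the Ly6C+ subset. Its difference was -0.53 (SE 0.13, adjusted p = 0.00974), and -0.38 (adjusted p = 0.0172) without that array. Both calls held in every alternative in which they were tested, 16 and 15. Col15a1 and Col18a1, which end in the fragments restin and endostatin, were not called (-0.13 each).

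Endothelial markers were lower beside these genes, in 12 of 15 cases (80%), and higher in 1, against 14.3% and 19.5% of all genes. Of the 11 markers above background in a subset 9 were lower and 1 higher, against 1988 and 3653 of the 12292 such genes. The median of this list was -0.39. Cdh5, the adhesion protein of endothelial junctions, was above background in both subsets and differed by -1.51 (SE 0.10, limma adjusted p = 3.40e-06). The sialomucin gene Emcn, under background in the Ly6C- cells, was at least 1.21-fold lower there (fitted difference -1.49, adjusted p = 0.000148). Kdr, the VEGF receptor, was not called (0.11), and Vwf was higher by 0.32 (SE 0.10, adjusted p = 0.0320). The summed linear level of the list was 782.4 to 849.3 in the Ly6C- and 1089 to 1198 in the Ly6C+ arrays. Here too the sum includes the signal of markers under background, and Cdh5 had the largest difference in it. The endothelial markers Tek and Sox17 were above background on no array. The part of endothelial cells in the Col4a1, Col4a2, Hspg2 and Nid1 differences was not tested.

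The beaded filament, network and anchoring collagens were lower in 4 of 12 cases (33.3%, against 14.3% of all genes) and higher in 0 by limma, with 6 and 0 at an unadjusted p under 0.05. Col6a3, the largest chain of the type VI microfibrils around muscle fibres, was under background in the Ly6C- cells and at least 1.21-fold lower there (fitted difference -0.42, SE 0.09, limma adjusted p = 0.00729). It read 5.17, 5.38 and 5.35 against 5.81, 5.57 and 5.77, and its call held in all 15 alternatives. Its partner chains Col6a1 and Col6a2 differed by -0.23 and -0.14 and were not called. Col6a6, another chain of this type, read 6.71, 6.81 and 6.82 against 7.15, 7.10 and 7.22 and differed by -0.38 (SE 0.08, adjusted p = 0.00379), but a second probe set of this gene differed by -0.05, and the mean of both was not called (-0.21, adjusted p = 0.0653). Col8a1, of the type VIII network under endothelium, and Col10a1, of hypertrophic cartilage, were called lower at levels near or under the background. Col8a1 was above background on 2 of 3 Ly6C+ arrays and was at least 1.07-fold lower, a call lost without the Ly6C- array of mouse 1 (adjusted p = 0.0534), after quantile normalization (adjusted p = 0.0553) and after cyclic loess (adjusted p = 0.0754). Col10a1 was above background on no array.

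Of 9 fibril-associated collagens 2 were lower (22.2%, against 14.3% of all genes) and 0 higher by limma, with 5 and 0 at an unadjusted p under 0.05. The 2 were Col9a3 and Col9a1, chains of the type IX collagen of cartilage, at -0.34 (SE 0.10, limma adjusted p = 0.0288) and -0.26 (SE 0.08, adjusted p = 0.0238). Col9a3 read 6.59, 6.95 and 6.74 against 7.11, 6.99 and 7.18, and Col9a1 6.01, 6.08 and 6.01 against 6.21, 6.32 and 6.37. Neither gene had overlapping groups. The Col9a3 call was lost under a replicate block for mouse (adjusted p = 0.0512), and without the array of mouse 1 or 3 of either subset (adjusted p = 0.0698 and 0.0939 for Ly6C+, 0.107 and 0.0808 for Ly6C-). The Col9a1 call was lost without the Ly6C+ array of mouse 2 (adjusted p = 0.0623) or mouse 3 (adjusted p = 0.0812) and without the Ly6C- array of mouse 1 (adjusted p = 0.0705) or mouse 3 (adjusted p = 0.0746). Col14a1 and Col12a1, the chains of this class found in tendon and muscle sheaths, were not called. Col14a1, above background in both subsets, differed by -0.023 (95% interval -0.21 to 0.16), and Col12a1 was above background on no array. None of the 4 transmembrane collagens was called by limma, while Col17a1, a hemidesmosome protein of skin, passed an unadjusted p under 0.05 (-0.27, adjusted p = 0.0521). It was called in 9 of 16 alternatives.

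Of the remaining glycoproteins Postn and Lox were called lower while above background on no array. Postn, the periostin gene of activated fibroblasts, read 3.45, 3.76 and 3.53 against 4.52, 4.16 and 4.12 (-0.69, limma adjusted p = 0.00176). Lox, the enzyme that crosslinks collagen, read 4.47, 4.36 and 4.38 against 5.33, 4.76 and 4.58 (-0.48, adjusted p = 0.0421). No fold is given for either, because both subsets lay under the background. The Lox call was lost without the Ly6C+ array of mouse 1 (-0.26, adjusted p = 0.0632), without the Ly6C- array of mouse 1 (adjusted p = 0.0768), mouse 2 (adjusted p = 0.0869) or mouse 3 (adjusted p = 0.108), after quantile normalization (adjusted p = 0.109) and after cyclic loess (adjusted p = 0.123). Tnc, the gene of tenascin C, was also above background on no array and not called, and the fibulin genes Fbln1 and Fbln2 were not called (-0.16 and -0.22).

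The array order within a subset was compared with that of the stromal markers. In the Ly6C+ subset the means of the fibroblast and of the endothelial markers were highest for mouse 1, as were 26 of the 59 members (44.1%), against 37.8% of all genes. In the Ly6C- subset both means were highest for mouse 2, as were 39 of the members (66.1%), against 46.8% of all genes. These orders were not particular to the stromal markers. The median over all genes was highest on the same arrays, at 6.001 against 5.949 and 5.988 in the Ly6C+ and 6.007 against 5.937 and 5.926 in the Ly6C- subset, and so were the means of the muscle and of the other leukocyte markers. The fibroblast mean ranged over 0.19 and 0.18 within the subsets, so the steps were small. Without the mouse 1 array of the Ly6C+ subset 16 members were called lower, against 23 with it. Without the mouse 1 or the mouse 3 array of the Ly6C- subset 13 were, and 0 to 1 were called higher with any 1 array left out.

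Of 31 measured genes of collagen synthesis and processing 6 (19.4%) were higher and 5 (16.1%) lower, near the 19.5% and 14.3% of all genes, and the median was -0.05. Crtap, a partner of the prolyl 3-hydroxylase, was higher by 1.49 (SE 0.08, limma adjusted p = 1.05e-06), the lysyl hydroxylase gene Plod1 by 1.02 (SE 0.08) and Sec23a, of the vesicle coat that exports procollagen, by 0.69 (SE 0.09). Serpinh1, the chaperone that binds the collagen triple helix, differed by -0.51 (SE 0.14, adjusted p = 0.0162) and P4ha1, a catalytic chain of prolyl 4-hydroxylase, by -0.39 (SE 0.12, adjusted p = 0.0257). Pcolce, which enhances the removal of the procollagen tail, differed by -0.31 (SE 0.07).

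Among 50 other core matrix genes 16 (32.0%) were lower and 3 (6.0%) higher, against 14.3% and 19.5% of all genes, and the median was -0.17. Emilin2, an elastic fibre glycoprotein, differed by -0.90 (SE 0.09, limma adjusted p = 4.70e-05), the SPARC relative Sparcl1 by -0.88 (SE 0.12) and Tgfbi, the TGF-beta-induced adhesion protein, by -0.73 (SE 0.07, adjusted p = 4.10e-05). The laminin chain genes Lamc1 and Lama3 went the other way. Lamc1 was higher by 1.04 (SE 0.08, adjusted p = 1.32e-05) and Lama3, under background in the Ly6C+ cells, was at least 1.36-fold higher (fitted difference 0.58, SE 0.08). The third gene called higher was Emilin1, at 0.35.

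Among 31 genes of matrix receptors and collagen uptake 10 (32.3%) were higher and 7 (22.6%) lower, against 19.5% and 14.3% of all genes, and the median was -0.06. Itga6, the laminin-binding integrin chain, was higher by 1.66 (SE 0.09, limma adjusted p = 8.71e-07), Cd36, which binds thrombospondin and collagen, by 1.57 (SE 0.08) and Stab1, a scavenger receptor for Sparc, by 1.43 (SE 0.09). Itga1, the collagen-binding integrin chain, differed by -1.93 (SE 0.11, adjusted p = 1.29e-06), and Itgb8 and Itga8 by -0.52 and -0.50.

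**Figure D4:**
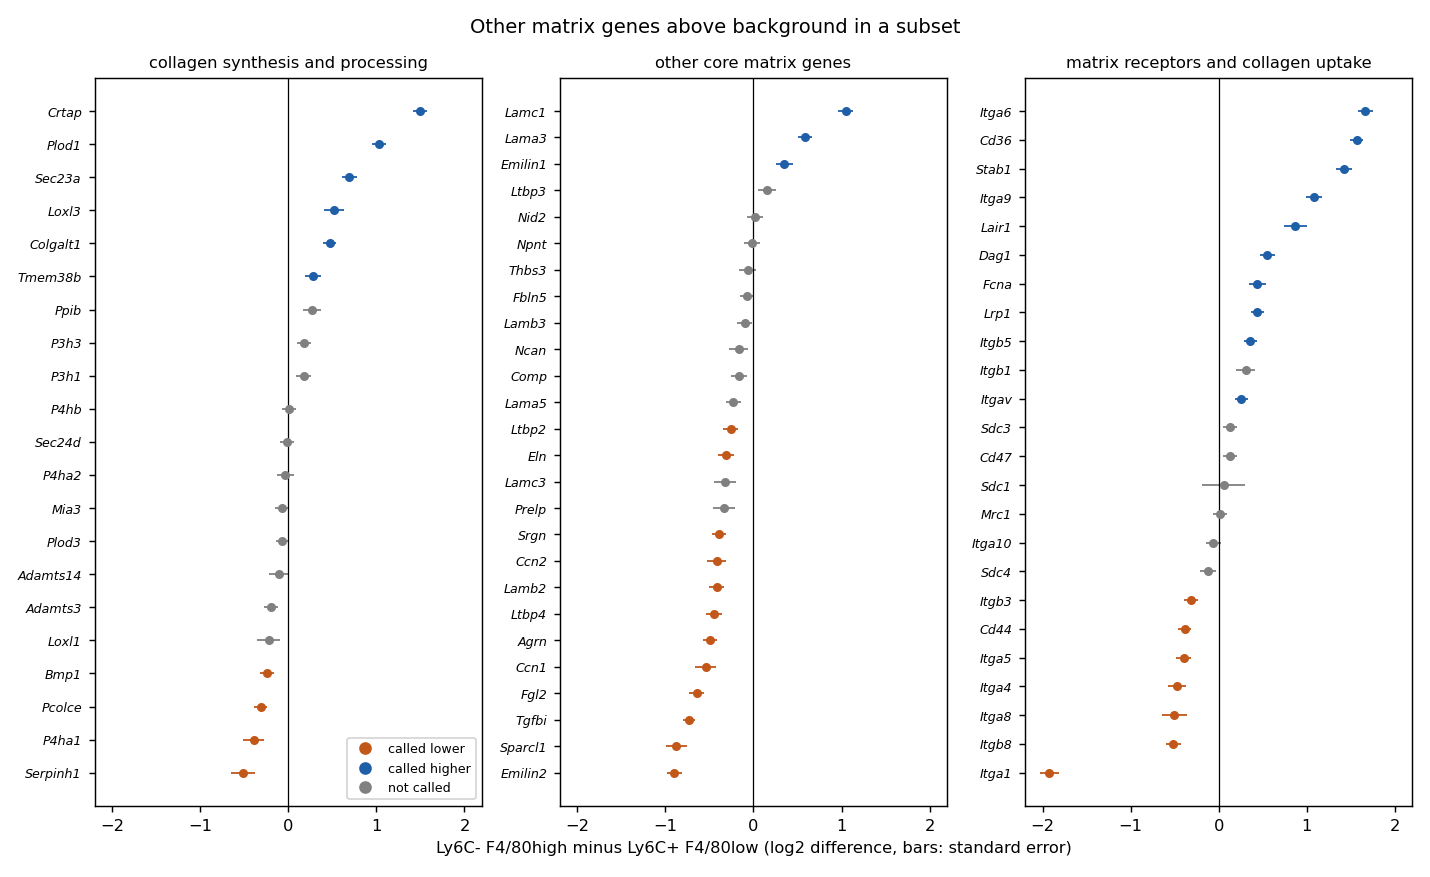
The x axes are log2 differences, Ly6C- minus Ly6C+ (n = 3 arrays each, bars: SE), for genes above background in a subset from the 3 other matrix lists, with orange for called lower, blue for called higher and grey for not called. Crtap at 1.49, Lamc1 at 1.04 and Itga6 at 1.66 lead to the right, and Serpinh1 at -0.51, Emilin2 at -0.90 and Itga1 at -1.93 to the left.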

How the data were processed

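Total RNA of 6 sorted samples was profiled on Affymetrix arrays, 150 ng amplified and labelled per array, per the labels' protocols. RMA was run by the authors, per the submitters' processing notes, and the deposited table holds its log2 values, a scale read from the values themselves. The RMA software, its version and any settings were "not given in the sources used here". RMA shrinks differences between weak signals, and the precision is limited by having 3 arrays per subset.

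Of 35556 probe sets 21789 had 1 gene symbol in the probe annotation, 1621 several and 12146 none. For each of 19938 genes the probe set of highest mean was kept, a choice that concerned 2 members. Differences were tested, two-sided, by lmFit and eBayes of limma 3.58.1 (R 4.3.3) on all genes, with no filter and Benjamini-Hochberg adjustment, and checked on simulated data. Where all 3 arrays of a subset were under background, folds are bounds with those arrays set to that level. Members, lists and the rule for named genes (every member, and from each other list up to 3 called genes in each direction with the largest differences, and up to 4 cell type markers of highest mean; other markers were named after their values were seen) were chosen with earlier results of these data known. The level range of the collagens and the step of 0.3 were chosen after seeing the data.

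Both subsets came from each mouse, so the mouse number pairs the arrays. Deviations of paired arrays from their subset means correlated at 0.03, -0.08 and 0.09 in mice 1, 2 and 3. The labels name no paired test. The replicate block was therefore an alternative, beside a random mouse effect, quantile, cyclic loess and median scaling, filters on level, the mean of probe sets, array weights, a trended robust prior and each array left out.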

Additional observations from a re-analysis of the deposited data

How the results depend on the processing

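Of the 24 called members 11 kept their call in every one of the 16 alternatives in which they were tested, and 13 lost it in at least 1. With the mouse as a replicate block, which uses the pairing of the subsets within a mouse, 19 were called, all lower, and 0 members were called higher, and 0 were higher after cyclic loess. Leaving out 1 array gave 0 to 1 members called higher and 13 to 28 called lower, 2 to 4 of them at 2-fold, and 1790 to 3290 of all genes lower, against 2861. With the lower 50% of genes left out, 2 members were lower at 2-fold, since Dcn and Bgn were removed. With the background at the 99th percentile 28 members were above it in a subset, against 48. Uncalled differences near zero changed sign: Col14a1 was 0.024 and 0.034 under quantile and cyclic loess scaling, and -0.079 to 0.015 with 1 array left out. Under quantile scaling Col19a1 was 0.027 and Col4a6 0.011, and under cyclic loess 0.046 and 0.027. The cause was not tested. Of the uncalled members 17 were called in at least 1 alternative. The median difference of the members stayed between -0.26 and -0.20 under quantile, cyclic loess and common median scaling. Signals near background limit what can be said of most collagens.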
